A study of Mus musculus with 12 samples.

Results

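The genes described here are 43 genes of DNA replication and of the passage from the G1 to the S phase of the cell cycle, measured in spontaneous lung tumours and in normal lungs of mice. They were taken from a list of gene symbols chosen for their function, and a gene counted as measured when at least 1 probe set of the array carried its symbol and no other. That held for 42 of the 43 genes, among 18193 genes in all; Chaf1a had no such probe set. The 42 genes had 100 probe sets, and 34 of them had more than 1, so each gene was represented by its probe set with the highest mean signal over the 12 arrays. By role they comprised 11 genes that license replication origins, 3 that activate the replicative helicase, 11 that prime, copy and join DNA at the fork, 5 that supply deoxynucleotides, 2 of chromatin assembly and histone messages, and 10 regulators of the G1/S transition.

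The tumour group held 6 lung tumours that arose spontaneously and the normal group held 6 normal lungs, 1 Affymetrix array each, all from untreated B6C3F1 mice of 2 years kept in a long-term bioassay of the National Toxicology Program. B6C3F1 is the cross of C57BL/6 and C3H mice. The labels do not say whether each sample came from a separate animal, nor give sex or tumour histology, so a p-value here reflects only how far these arrays spread. Values are signal intensities per probe set, scaled by the authors to a common trimmed mean on each array. Each difference is the tumour mean less the normal mean of log2(signal + 16), where 1 is a 2-fold change, and is given ± the standard error of the limma fit with 6 arrays per group. A gene was called higher or lower when its adjusted p from limma, with Benjamini-Hochberg adjustment over all 45037 probe sets, lay under 0.05.

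Before a cell copies its genome, the origin recognition complex, Cdc6 and Cdt1 load the ring of Mcm2 to Mcm7 on DNA in G1 phase. Cyclin-dependent kinases then pair this ring with Cdc45 and the GINS complex to make the active helicase, behind which primase, the replicative polymerases, the sliding clamp Pcna and its loader, the replication factor C complex, synthesise DNA. The D-type cyclins with Cdk4 or Cdk6, and cyclin E with Cdk2, phosphorylate the retinoblastoma protein and free the E2F factors that drive transcription of many of these genes.

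Because many of these genes are known E2F targets, their promoters were searched for E2F motifs. Promoter sequences of 250 bases before to 50 after the start were given by RefSeq (GRCm38.p6) for 36 of the 43 genes. TTTCCCGC, TTTCGCGC, TTTGCCGC or TTTGGCGC was present on either strand in 13 of the 36 promoters (36.1%), against 704 of 27025 genes in the table (2.6%). The 13 genes were Orc1, Cdc6, Cdt1, Mcm3, Mcm5, Mcm6, Mcm7, Pola1, Pold1, Rfc3, Lig1, Cdk2 and E2f2. Of the genes higher in tumours with a promoter entry, 8 of 17 held the motif, and of those with no call 4 of 16. The motif was not particular to this list. In the related lists described below it was present in 6 of 18 further G1/S regulators (33.3%), 7 of 23 further replication genes (30.4%) and 1 of 23 mitosis genes (4.35%). CCAAT, on either strand, was present in 21 of the 36 (58.3%) and in 41.1% of all genes. In the 100 bases before the start alone, the E2F motif was present in 3 of 36 (8.33%) and in 0.981% of all genes, and CCAAT in 50% and 21.6%. In that window the E2F motif was present in 27.8% of the further G1/S regulators, 13% of the further replication genes and 0 of 23 mitosis genes. The matches describe the letters and are no evidence of binding.

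The promoters of Mcm5, Mcm6, Rfc3 and E2f2 are printed because they hold the motif in overlapping (Mcm5 and Mcm6), neighbouring (Rfc3) and single (E2f2) copies, and because the first 3 genes were higher in tumours and E2f2, itself an E2F factor, was lower. Capitals mark the E2F motif on either strand. The windows are chr8:75109259-75109558 on the plus strand for Mcm5, chr1:128359656-128359955 on the minus strand for Mcm6, chr5:151651159-151651458 on the minus strand for Rfc3 and chr4:136172024-136172323 on the plus strand for E2f2. The match in this E2f2 window lies after the start, and a second E2f2 window (chr4:136180532-136180831) held no E2F motif. In Mcm5 and at the upstream place in Mcm6 a motif on the printed strand overlaps 1 on the opposite strand, so the run of capitals is longer than a single motif.
Mcm5: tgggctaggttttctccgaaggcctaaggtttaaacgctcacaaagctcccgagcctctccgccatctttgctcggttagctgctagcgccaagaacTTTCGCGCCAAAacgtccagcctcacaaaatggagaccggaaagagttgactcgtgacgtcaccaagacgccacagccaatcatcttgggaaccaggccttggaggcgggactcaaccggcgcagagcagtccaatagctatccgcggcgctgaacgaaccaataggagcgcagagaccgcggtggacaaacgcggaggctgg
Mcm6: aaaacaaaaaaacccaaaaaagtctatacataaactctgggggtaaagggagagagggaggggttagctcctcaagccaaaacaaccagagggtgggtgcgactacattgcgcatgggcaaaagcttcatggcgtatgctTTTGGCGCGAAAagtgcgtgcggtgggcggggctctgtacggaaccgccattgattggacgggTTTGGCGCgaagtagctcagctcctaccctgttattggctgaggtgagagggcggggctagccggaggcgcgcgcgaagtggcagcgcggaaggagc
Rfc3: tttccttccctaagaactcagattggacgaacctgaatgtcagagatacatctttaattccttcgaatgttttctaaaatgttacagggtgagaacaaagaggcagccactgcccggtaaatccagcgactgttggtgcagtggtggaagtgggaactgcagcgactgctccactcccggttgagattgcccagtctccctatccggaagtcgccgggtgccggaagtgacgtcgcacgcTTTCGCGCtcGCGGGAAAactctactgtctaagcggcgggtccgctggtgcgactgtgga
E2f2: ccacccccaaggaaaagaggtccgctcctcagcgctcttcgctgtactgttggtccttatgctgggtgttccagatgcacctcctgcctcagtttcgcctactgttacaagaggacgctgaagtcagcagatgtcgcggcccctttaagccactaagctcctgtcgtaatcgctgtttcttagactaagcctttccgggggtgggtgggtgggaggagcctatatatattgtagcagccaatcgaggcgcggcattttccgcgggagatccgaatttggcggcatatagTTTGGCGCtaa

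Many genes of the replication machinery were higher in tumours, whereas the G1/S regulators moved both ways. Of the 42 genes, 21 were higher, 2 were lower and 19 had no call. Over all genes on the array 12.2% were higher and 17.5% lower, so the list held more upward and fewer downward calls than the array as a whole. With each array centred on its median the counts became 29 higher and 2 lower, since that scaling raised the median difference of all genes by 0.19 and moved the share of upward calls among all called genes to 59.9%, against 41.1% as reported. At least a 2-fold change was found for 13 genes upward (4.73% of all genes) and for 2 downward (10.6% of all genes). All 6 tumours lay above all 6 normal lungs for 15 genes (6.77% of all genes) and below them for 2 (11.8% of all genes). The median difference was 0.53 over the 42 genes and -0.08 over all genes. Outside the G1/S regulators 18 of 32 genes were higher and 0 were lower at the same threshold, with a median of 0.73. Among the 10 regulators 3 were higher (30%) and 2 lower (20%, near the 17.5% of all genes), with a median of -0.12.

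**Figure D1:**
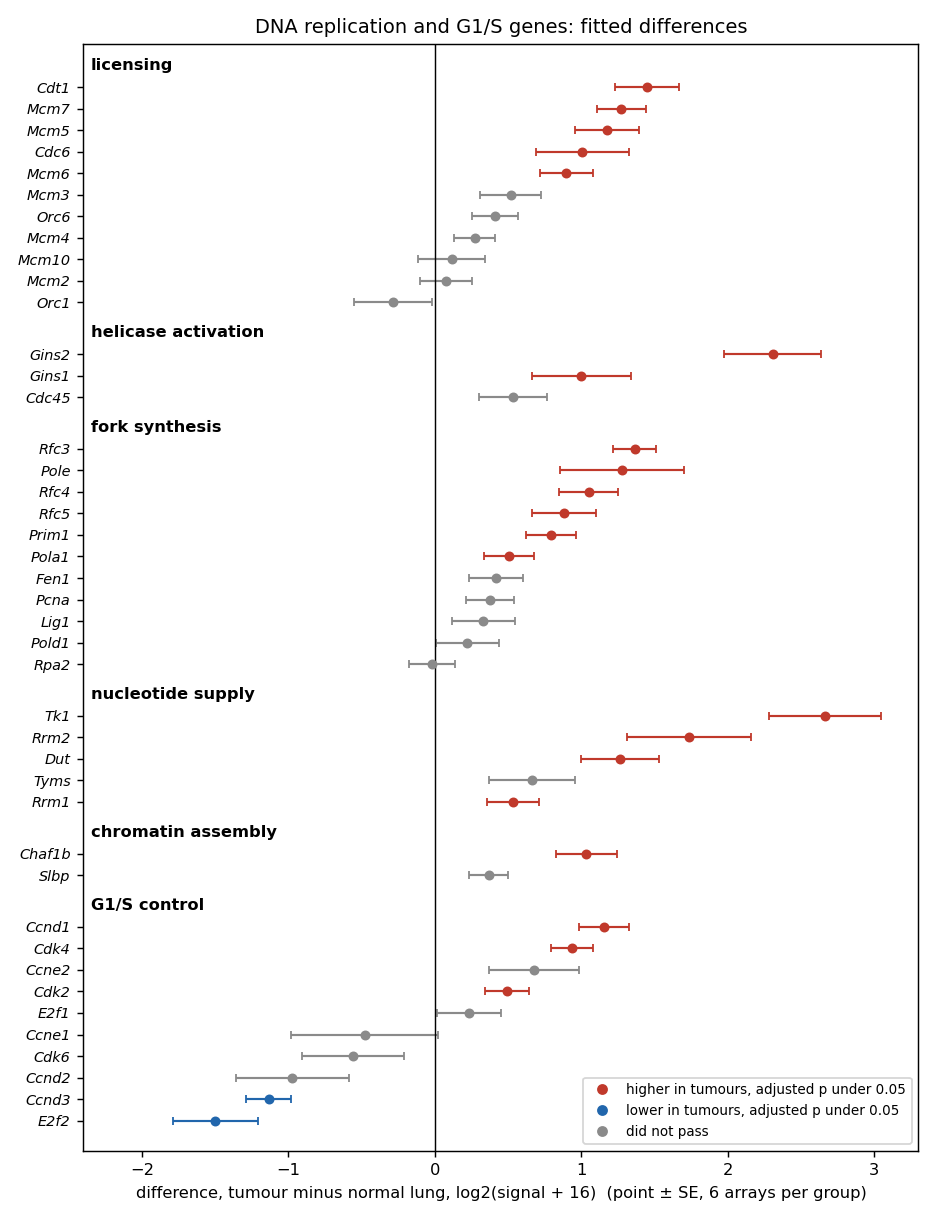
Difference between tumours and normal lungs for each of the 42 measured genes, grouped by role, on the log2(signal + 16) scale; points are fitted differences and bars are standard errors (6 arrays per group). The largest rise was that of Tk1 (2.66) and the largest fall that of E2f2 (-1.50), and all called genes outside the G1/S regulators lie to the right of 0.

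Several features of the tissue differed between the groups beside these genes. The 8 endothelial markers were all lower in tumours, with summed signals of 3916 to 10444 against 52268 to 72066 in normal lungs. Of 8 epithelial markers 7 were higher, with summed signals of 43631 to 125750 in tumours and 21269 to 24150 in normal lungs. Of 8 alveolar macrophage markers 5 were higher (12567 to 65906 in tumours, 10451 to 19078 in normal lungs). Of 7 T cell markers 3 were lower (383 to 1934 in tumours, 1264 to 2278 in normal lungs), and of 5 B cell markers 3 were lower (448 to 1931 against 1093 to 12770). Of 7 fibroblast markers 4 were lower, with summed signals of 7865 to 24272 in tumours and 27820 to 33305 in normal lungs. The other 3, the collagens Col1a1, Col3a1 and Col1a2, had no call, with differences of 0.95, 0.65 and 0.12. By any probe set 3 of the 7 fibroblast markers were higher. Some normal lungs stood apart from the others. Liver transcripts, as a list mean on the log2(signal + 16) scale, were at 4.89 to 7.75 in tumours, 10.59 and 11.01 in normal lungs 2 and 4 and 5.53 to 8.09 in the other normal lungs, and neutrophil markers were at 7.62 to 9.59 in tumours, 13.06 in normal lung 1 and 7.74 to 10.12 in the other normal lungs. Without normal lungs 2 and 4 the count of the 42 genes was 18 higher and 2 lower with a median of 0.55, and without normal lung 1 it was 19 higher and 2 lower. No marker of these lists lay under the offset of 16 on every array. In bulk tissue more cells of a type and more RNA per cell cannot be told apart, and the part of tissue composition in the differences was not tested. Tumours 1, 2, 3 and 5 carried the Y-linked transcript Eif2s3y (740 to 1638 signal units), while tumours 4 and 6 and all normal lungs lay between 2.09 and 27.4 and carried Xist. With tumours 1, 2, 3 and 5 left out, only tumours 4 and 6 remained, so a difference of the same size passes less easily. The count was then 16 higher and 2 lower (9.04% and 13.9% of all genes) and the median difference 0.76. The median signal per array was 126 to 150 in tumours and 151 to 164 in normal lungs. The 3' to 5' ratio of actin was 1.32 in tumour 1 and 1.16 to 1.19 on the other 11 arrays, and without tumour 1 the count was 22 higher with a median of 0.62.

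Among the licensing genes, 5 of 11 were higher and 0 lower, with a median difference of 0.52. The calls comprised the loaders Cdt1 and Cdc6 and the helicase subunits Mcm5, Mcm6 and Mcm7. Cdt1, which brings the Mcm ring to the origin and is degraded once S phase begins, had a lowest, median and highest signal of 844, 1476 and 2228 in tumours, against 399, 486 and 700 in normal lungs. The groups did not overlap, tumour 2 was the highest and tumour 4 the lowest of the tumours, and the difference was 1.45 ± 0.22 (adjusted p = 1.8e-04). Mcm7 had 1932, 2764 and 3810 signal units in tumours and 935, 1120 and 1488 in normal lungs, again without overlap, for a difference of 1.27 ± 0.17 (adjusted p = 4.9e-05). Its other 3 probe sets were also higher, by 0.66 to 1.01. Mcm5 rose by 1.17 ± 0.22 (1019 ± 384 in tumours, 422 ± 76.5 in normal lungs, SD, n = 6; adjusted p = 0.0011) and Mcm6 by 0.90 ± 0.18 (1667 ± 605 in tumours, 852 ± 85.4 in normal lungs, SD, n = 6; adjusted p = 0.0017). Both kept all tumours above all normal lungs, with tumour 1 the lowest tumour for Mcm5, Mcm6 and Mcm7. Cdc6, the ATPase that recruits Mcm to the origin complex, was dim and its groups overlapped, with 67.1, 111 and 228 in tumours and 32.1, 45.2 and 107 in normal lungs. Its difference of 1.0 ± 0.32 (adjusted p = 0.031) lost its call when any of 7 arrays (tumours 2, 4 or 6, normal lungs 1, 3, 4 or 5) was left out, with values of 0.83 to 1.0.

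The other Mcm subunits depended on the probe set. The brightest probe sets of Mcm2, Mcm3 and Mcm4 differed by 0.08 ± 0.18, 0.52 ± 0.21 and 0.27 ± 0.14 (adjusted p = 0.81, 0.086 and 0.19), with 3 of 6, 4 of 6 and 5 of 6 tumours above all normal lungs and, for Mcm2, tumour 3 below all of them (500 signal units, against at least 664 in normal lungs). A dimmer probe set of Mcm2 was higher by 1.36 ± 0.26 (577 ± 291 in tumours, 195 ± 26.8 in normal lungs, SD, n = 6; adjusted p = 0.0012). Further probe sets of Mcm3 were higher by 0.66 and 1.08, while its remaining ones had no call (0.34 and -0.05, adjusted p = 0.30 and 0.93). The other probe set of Mcm4 was higher by 0.90 ± 0.22 (adjusted p = 0.0074). Each of the 6 Mcm2 to Mcm7 subunits therefore had at least 1 probe set past the threshold upward, as did 14.9% of all genes. Mcm3 also passed on its brightest probe set without tumour 1 (0.62, adjusted p = 0.045). The origin complex itself and Mcm10, which joins the helicase as it is activated, had no call. Orc6 differed by 0.41 ± 0.16 (adjusted p = 0.071, and 0.032 without tumour 4), Orc1 by -0.29 ± 0.26 (adjusted p = 0.49) and Mcm10 by 0.11 ± 0.23 (adjusted p = 0.78).

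**Figure D2:**
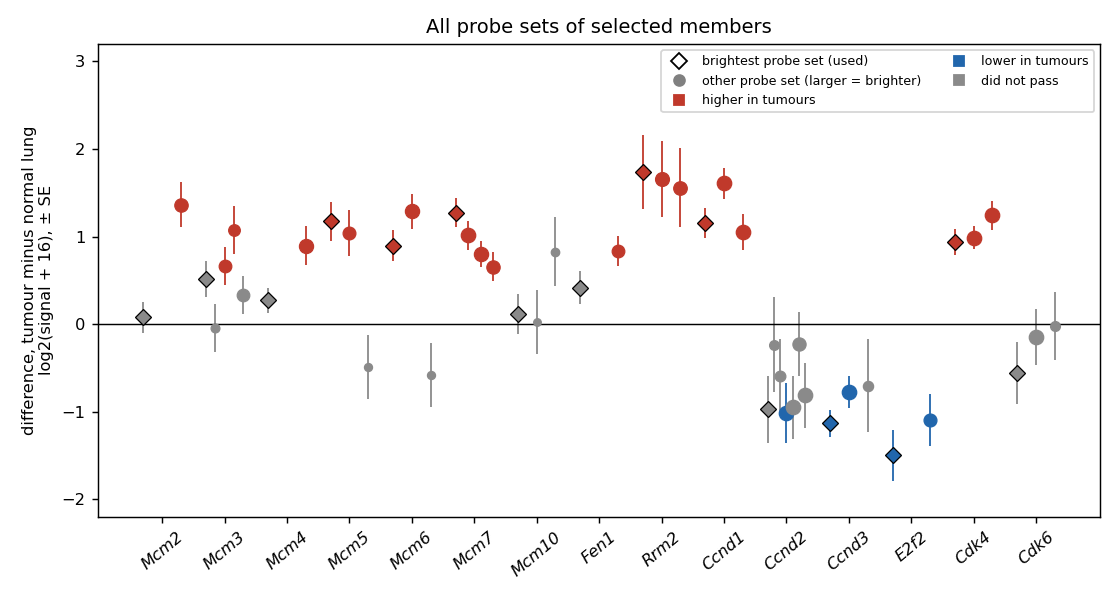
Differences between tumours and normal lungs for every probe set of 15 genes of the list, on the log2(signal + 16) scale with standard errors (6 arrays per group); diamonds are the brightest probe set of a gene, which represents it, circles are its other probe sets (larger is brighter), and colour gives the call. For Mcm2, Mcm3, Mcm4 and Fen1 a grey diamond stands below at least 1 red circle, so that the call depended on the probe set.

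Counting genes by any probe set past the threshold gave 25 of 42 higher and 3 lower, against 14.9% and 19.9% of all genes. The 23 called genes had 29 other probe sets, of which 24 differed in the same direction, 19 passed the threshold in it and 0 passed it in the opposite direction. Of the 10 that did not pass in it, 9 averaged at most 117 signal units in either group, and the exception belonged to Rrm1. Of the 42 genes 9 were represented by a probe set whose suffix (s or x) marks probes that can match other transcripts. Of these 5 were higher and 4 had no call, and of the other 33 genes 16 were higher, 2 lower and 15 had no call.

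The helicase activators included the gene with the second largest rise of the list. Gins2, a subunit of the GINS complex, had a lowest, median and highest signal of 147, 261 and 536 in tumours, against 25.8, 40.2 and 80.3 in normal lungs. All tumours lay above all normal lungs and tumour 6 was the highest, with a difference of 2.31 ± 0.33 (adjusted p = 1.1e-04). The other Gins2 probe set differed by 2.48. Gins1, another subunit, differed by 1.0 ± 0.34 (209 ± 94.7 in tumours, 97.4 ± 40.1 in normal lungs, SD, n = 6; adjusted p = 0.043), but lost its call when any of tumours 2, 3 or 6 or normal lungs 3, 5 or 6 was left out, with values of 0.75 to 1.06. Cdc45, which completes the active helicase, differed by 0.53 ± 0.23 and had no call (adjusted p = 0.11).

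At the fork, 6 of 11 genes were higher and 0 lower, and the 3 clamp loader subunits of the list were among them. Rfc3 had the smallest adjusted p of the whole list (7.1e-06). Its signal was 433, 476 and 613 in tumours and 161, 188 and 216 in normal lungs (lowest, median and highest), without overlap, and the difference was 1.36 ± 0.14. Tumour 3 was the highest tumour, and tumours 6 and 2, which led most other genes, were in the lower part of the range. Rfc4 rose by 1.05 ± 0.20 (459 ± 139 in tumours, 206 ± 24.3 in normal lungs, SD, n = 6; adjusted p = 0.0013) and Rfc5 by 0.88 ± 0.22 (417 ± 128 in tumours, 217 ± 53.7 in normal lungs, SD, n = 6; adjusted p = 0.0074). Rfc1 and Rfc2, the remaining loader subunits and no members of the list, differed by 0.02 and 0.01 with no call. Prim1, the catalytic primase subunit, rose by 0.79 ± 0.17 (adjusted p = 0.0027), and its normal lungs were within 316 to 340 signal units while tumours spanned 399 to 781.

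The calls of the polymerase subunits did not hold when single arrays were left out, and the clamp had no call. Pole, the catalytic subunit of the leading-strand polymerase, differed by 1.28 ± 0.42 (adjusted p = 0.04) at low signal (72.3 to 270 in tumours, 7.65 to 93.4 in normal lungs), and lost its call when any of tumours 2, 3, 4 or 6 or normal lungs 3, 5 or 6 was left out, with values of 1.01 to 1.34. Pola1, which extends the primer, differed by 0.50 ± 0.17 (adjusted p = 0.043) and lost its call when any of tumours 4, 5 or 6 or normal lungs 2 to 6 was left out, with values of 0.38 to 0.52. Pold1, of the lagging-strand polymerase, differed by 0.22 ± 0.21 (adjusted p = 0.51). Pcna had 4437, 6426 and 9262 signal units in tumours and 4389, 4959 and 5748 in normal lungs. Tumours 1 and 4 lay within the normal range and the other 4 above it, and the difference of 0.37 ± 0.16 had no call (adjusted p = 0.12), though it passed without tumour 4 (0.48, adjusted p = 0.032). Fen1 and Lig1, which trim and seal Okazaki fragments, differed by 0.42 ± 0.18 and 0.33 ± 0.21 with no call (adjusted p = 0.12 and 0.31), while a dimmer probe set of Fen1 was higher by 0.83 ± 0.17 (adjusted p = 0.0023). Rpa2, of the single-strand binding complex, differed by -0.02 ± 0.16 (adjusted p = 0.95).

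The genes of deoxynucleotide supply had the largest median difference of the 6 roles, 1.26, with 4 of 5 higher and 0 lower. Tk1, the thymidine kinase that salvages thymidine in S phase, had 197, 347 and 933 signal units in tumours, against 13.8, 47.2 and 93 in normal lungs. No tumour overlapped the normal lungs, tumour 6 was the highest and tumours 1 and 4 were the lowest, and the difference of 2.66 ± 0.38 (adjusted p = 1.1e-04) was the largest of the list. Rrm2, the S-phase subunit of ribonucleotide reductase, rose by 1.73 ± 0.42 (adjusted p = 0.0071), yet its values were dominated by tumour 6, at 4834 signal units against 449 to 755 in the 5 others and 232 to 313 in normal lungs. Without tumour 6 the difference was 1.25 (adjusted p = 5.2e-05). Dut, which clears dUTP, rose by 1.26 ± 0.26 (529 ± 250 in tumours, 199.9 ± 54.6 in normal lungs, SD, n = 6; adjusted p = 0.0024). Rrm1, the large reductase subunit, differed by 0.53 ± 0.18 (adjusted p = 0.043) and lost its call in 10 of the 12 fits that left out 1 array, all but those without tumour 1 or tumour 4, with values of 0.39 to 0.56. Tyms, thymidylate synthase, was dim and differed by 0.66 ± 0.29 with no call (adjusted p = 0.12). Chaf1b, the middle subunit of the histone chaperone that follows the fork, rose by 1.03 ± 0.21 (221 ± 59.2 in tumours, 98.3 ± 18.8 in normal lungs, SD, n = 6; adjusted p = 0.0017). Slbp, which binds histone messages, differed by 0.37 ± 0.13 (adjusted p = 0.056, and 0.026 without normal lung 3).

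Among the G1/S regulators the D-type cyclin Ccnd1 rose, Ccnd3 fell and Ccnd2 had no call. Ccnd1, cyclin D1, had 7096, 9383 and 15367 signal units in tumours and 3892, 4552 and 4949 in normal lungs (lowest, median and highest). All tumours lay above all normal lungs, tumours 2 and 6 were the highest, and the difference was 1.16 ± 0.17 (adjusted p = 1.5e-04). Ccnd3, cyclin D3, which is prominent in lymphoid cells, had 1059, 1290 and 1574 signal units in tumours, against 2237, 2820 and 4287 in normal lungs. All tumours lay below all normal lungs, and the difference was -1.13 ± 0.15 (adjusted p = 5.9e-05). Ccnd2, cyclin D2, had 711, 1576 and 5504 signal units in tumours and 2699, 2869 and 3967 in normal lungs. Of the tumours 5 lay below every normal lung and tumour 4 above every normal lung, so that the difference of -0.97 ± 0.38 had no call (adjusted p = 0.081). Without tumour 4 it was -1.34 (adjusted p = 0.0017), but leaving out the highest tumour lowers the tumour mean by construction. Another Ccnd2 probe set passed the threshold downward (-1.01, adjusted p = 0.044) and the remaining 5 did not.

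Of the kinases that partner these cyclins, Cdk4 rose and Cdk6 had no call. Cdk4 had 1418, 2364 and 2683 signal units in tumours and 989, 1105 and 1367 in normal lungs. The groups did not overlap, tumour 1 was the lowest tumour, and the difference was 0.94 ± 0.15 (adjusted p = 2.3e-04), with the other 2 probe sets at 0.99 and 1.24. Cdk6 had 523, 896 and 3215 signal units in tumours, against 1365, 1514 and 1863 in normal lungs. Here 4 tumours lay below every normal lung, tumour 2 lay above every one and tumour 6 within their range, and the difference was -0.56 ± 0.35 with no call (adjusted p = 0.29), which became -0.88 (adjusted p = 0.018) without tumour 2. With tumours 2 and 6, the highest in Cdk6, both left out it was -1.15. Leaving out the highest tumours lowers the tumour mean by construction, so neither fit is support for a fall. Cdk2, the partner of cyclin E, differed by 0.49 ± 0.15 (adjusted p = 0.024) and lost its call when any of tumour 3 or normal lungs 2, 4 or 5 was left out, with values of 0.41 to 0.47. The E cyclins Ccne1 and Ccne2 were dim and had no call (-0.48 ± 0.50 and 0.68 ± 0.31, adjusted p = 0.55 and 0.13).

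The E2F factors of the list included its largest fall. E2f2, an activating E2F, had 72.7, 190 and 307 signal units in tumours, against 384, 478 and 652 in normal lungs. All tumours lay below all normal lungs, tumours 6 and 2 were the lowest, and the difference was -1.50 ± 0.29 (adjusted p = 0.0013). Its other probe set fell too, by 1.10 on the log2 scale (adjusted p = 0.014). The tumours lowest in E2f2 were thus those with the highest mean over the list. E2f1, the best known activator of S-phase genes, had 130, 212 and 261 signal units in tumours and 133, 151 and 242 in normal lungs, and its difference of 0.23 ± 0.22 had no call (adjusted p = 0.5).

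**Figure D3:**
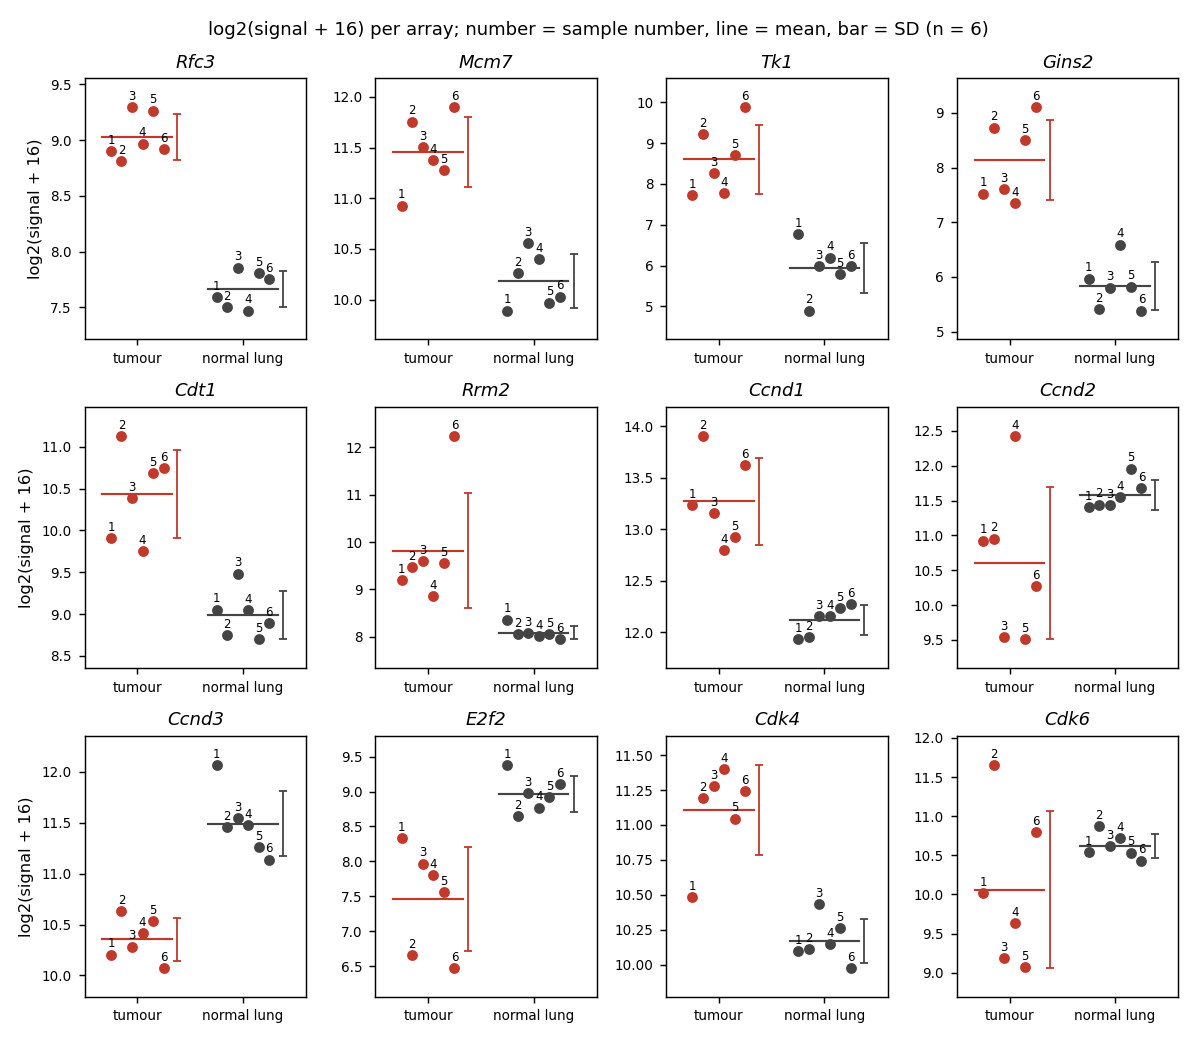
log2(signal + 16) on each array for 12 genes; each number is a sample number, lines are group means and bars are SD (n = 6 per group), with tumours left and normal lungs right in each panel. Rfc3, Mcm7, Tk1, Gins2, Cdt1, Rrm2, Ccnd1 and Cdk4 have every tumour above every normal lung, Ccnd3 and E2f2 every tumour below, and Ccnd2 and Cdk6 have a single high tumour (4 and 2).

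The tumours were then ranked by the mean of the 42 genes on the log2(signal + 16) scale. Tumour 6 ranked highest at 9.54, followed by tumour 2 at 9.22, tumour 5 at 9.04, tumour 3 at 8.91, tumour 4 at 8.88 and tumour 1 at 8.76. All lay above the normal lungs, which spanned 8.33 to 8.56, and the means were 9.06 ± 0.28 in tumours and 8.46 ± 0.09 in normal lungs (SD, n = 6). Relative to the normal mean the tumours stood 0.30 (tumour 1) to 1.07 (tumour 6) higher. Single genes followed the ranking only in part: tumour 6 exceeded tumour 2 in 31 of 42 genes, tumour 2 exceeded tumour 5 in 25, tumour 5 exceeded tumour 3 in 23, tumour 3 exceeded tumour 4 in 27 and tumour 4 exceeded tumour 1 in 28. Tumour 6 held the highest tumour value of 22 genes and tumour 2 of 9, and tumour 1 held the lowest of 18. The number of genes above every normal lung was 36 in tumour 6, 31 in tumour 2, 30 in tumour 5, 27 in tumour 3, 26 in tumour 4 and 17 in tumour 1. This count and the ranking use the same values, so their shared order is no separate support for it. Each tumour is a single array, so the order describes these samples. It was the same with offsets of 1 and 64, median centring, quantile normalization and dim probe sets left out. With the mean of all probe sets of a gene tumours 3 and 4 changed places. Leaving out normal lungs cannot change the order.

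The order differed between roles. In nucleotide supply the list mean was 9.83 in tumour 6 and 8.26 to 8.80 in the other tumours, against 7.08 to 7.55 in normal lungs. In licensing, tumour 6 (9.70), tumour 5 (9.51) and tumour 2 (9.48) stood apart from tumours 1, 3 and 4 (8.80 to 9.04), against 8.53 to 8.78 in normal lungs. For the G1/S regulators the groups overlapped, with 8.87 to 9.67 in tumours and 9.39 to 9.5 in normal lungs, and tumour 5 was the lowest. The standard deviation was larger among tumours than among normal lungs for 37 of 42 genes (88.1%), against 69.4% of all genes.

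**Figure D4:**
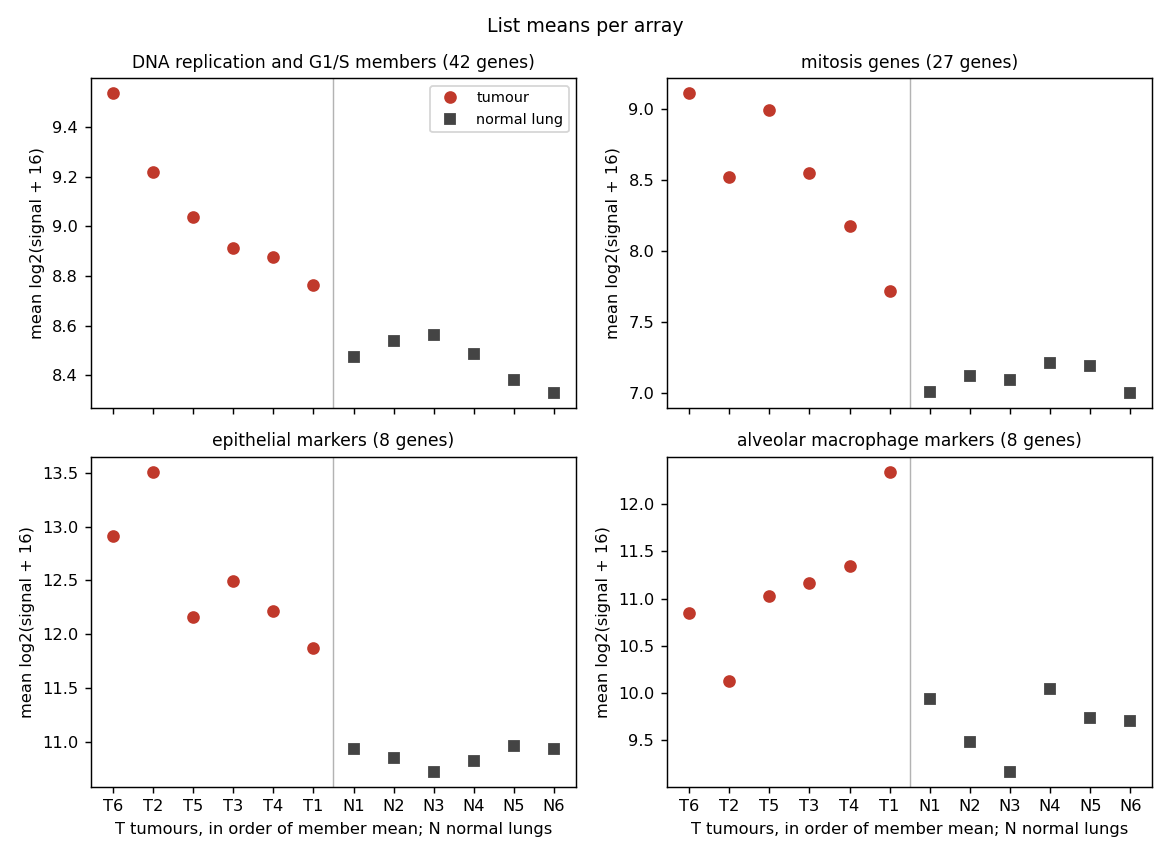
Mean log2(signal + 16) per array for the 42 DNA replication and G1/S genes, 27 mitosis genes, 8 epithelial markers and 8 alveolar macrophage markers, with tumours (circles) in order of the first list at the left and normal lungs (squares) at the right. Tumour 6 is highest in the first 2 lists, tumour 2 in epithelial markers and tumour 1 in alveolar macrophage markers.

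Other lists ordered the tumours differently, and their part in the ranking was not tested. The mean of 27 mitosis genes was 7.72, 8.52, 8.55, 8.18, 8.99 and 9.11 in tumours 1 to 6, against 7.0 to 7.21 in normal lungs. Tumour 6 was thus highest and tumour 1 lowest in both lists, while tumour 2, next after tumour 6 for replication, lay below tumours 3, 5 and 6 for mitosis. Epithelial markers averaged 11.88 in tumour 1, 13.51 in tumour 2 and 12.16 to 12.91 in the other tumours, against 10.72 to 10.96 in normal lungs. Alveolar macrophage markers averaged 12.34 in tumour 1, 10.12 in tumour 2 and 10.85 to 11.34 in the other tumours, against 9.17 to 10.04 in normal lungs. Tumour 1 therefore combined the lowest replication mean with the lowest epithelial and the highest macrophage mean. The mean of 7 lung tissue markers was 13.36 in tumour 6, 13.55 in tumour 2 and 14.10 to 14.18 in the other tumours. Normal lungs had 13.79 to 14.23, so the tumours ranked highest for replication were lowest here. Without tumours 2 and 6, 16 of the 42 genes were higher and 3 lower (14.1% and 18.6% of all genes), with a median difference of 0.42. Among tumours, T cell markers were highest in tumour 2 (7.75, where the remaining tumours had 5.94 to 6.74 and normal lungs 7.35 to 7.79), and B cell markers in tumour 1 (8.20). Endothelial markers averaged 10.23 in tumour 4 and 8.74 to 9.89 in the other tumours, against 12.53 to 12.98 in normal lungs.

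Mitosis genes, the list most like this one, had a median difference of 1.49. Of 27 measured, 25 were higher (92.6%) and 1 was lower (3.7%), against 12.2% and 17.5% of all genes. The difference between the lists was not tested. Bub1b, a spindle checkpoint kinase, rose by 2.71 ± 0.31 (299 ± 79.5 in tumours, 35.3 ± 25.8 in normal lungs, SD, n = 6; adjusted p = 1.4e-05). Mki67, the proliferation antigen, and Top2a, the topoisomerase that untangles sister chromatids, rose by 1.67 ± 0.21 and 1.63 ± 0.22 (adjusted p = 3.3e-05 and 5.4e-05). The exception was Pttg1, securin, which differed by -1.12 ± 0.14 (adjusted p = 3.2e-05). An E2F motif was present in 1 of 23 mitosis promoters (4.35%) and CCAAT in 16 (69.6%).

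Of 29 further replication genes, 9 were higher (31.0%) and 3 lower (10.3%), with a median of 0.20. The shares over all genes were 12.2% and 17.5%. Dbf4, the activator of the Cdc7 kinase that fires origins, rose by 1.12 ± 0.13 (575 ± 74.4 in tumours, 255 ± 21.9 in normal lungs, SD, n = 6; adjusted p = 1.6e-05), whereas Cdc7 itself had no call (-0.46 ± 0.27, adjusted p = 0.26). Uhrf1, which maintains DNA methylation behind the fork, rose by 1.51 ± 0.25 (adjusted p = 4.1e-04) and Rpa3, of the single-strand binding complex, by 0.94 ± 0.18 (adjusted p = 0.0014). The genes that fell were Timeless, of the fork protection complex (-0.87 ± 0.14, adjusted p = 3.9e-04), Rrm2b, the p53-inducible reductase subunit (-0.59 ± 0.12, adjusted p = 0.0017), and Rpa1 (-0.46 ± 0.12, adjusted p = 0.011). Timeless differed by 0.14 with no call when all its probe sets were averaged (adjusted p = 0.55), and Dbf4 lost its call there (0.63, adjusted p = 0.055). Rpa1 had no call with arrays centred on their median (adjusted p = 0.18) or without normal lungs 2 and 4 (adjusted p = 0.074). Rrm2b had no call with all its probe sets averaged (adjusted p = 0.087). Without tumours 1, 2, 3 and 5, where few tumours remained, neither Rpa1 nor Rrm2b had a call (-0.44 and -0.43, adjusted p = 0.12 and 0.081). The same held with Eif2s3y as a covariate (-0.46 and -0.44, adjusted p = 0.074 and 0.065). Gmnn, geminin, which blocks Cdt1, differed by -0.01 ± 0.18 (adjusted p = 0.99).

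Of 23 further G1/S regulators, 7 were higher (Cks1b, Ccna2, Cdkn2a, Tfdp1, E2f3, E2f8 and Cdc25a) and 7 lower (Cdkn1c, Cdkn2c, Cdkn2d, Tfdp2, Rb1, Rbl2 and Fbxw7). Each count is 30.4% of the list, against 12.2% higher and 17.5% lower over all genes. Cks1b, a small subunit of cyclin-dependent kinases that also helps degrade the inhibitor p27, rose by 2.54 ± 0.18, with 3631, 5969 and 8993 signal units in tumours and 918, 1026 and 1109 in normal lungs (adjusted p = 2.2e-07). Every tumour lay above every normal lung. Cyclin-dependent kinase inhibitors differed in direction. Cdkn1c, p57, differed by -2.02 ± 0.21 (214 ± 81.4 in tumours, 870 ± 67.5 in normal lungs, SD, n = 6; adjusted p = 5.3e-06). Cdkn2c (-1.31 ± 0.21, adjusted p = 3.6e-04) and Cdkn2d (-0.94 ± 0.24, adjusted p = 0.0085), which inhibit Cdk4 and Cdk6, were lower too. Cdkn2d had no call without tumours 1, 2, 3 and 5 (-0.91, adjusted p = 0.12) or with Eif2s3y as a covariate (-0.84, adjusted p = 0.10). Cdkn2a differed by 1.04 ± 0.33 (adjusted p = 0.033), but lost its call when any of tumours 1, 2, 4 or 5 or normal lungs 1, 2, 4 or 6 was left out, with values of 0.90 to 1.05. Cdkn1a, p21, had no call (0.46 ± 0.27, adjusted p = 0.25) until tumour 1 was left out (0.67, adjusted p = 0.045).

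The pocket proteins that hold E2F in check were lower for 2 of 3. Rb1 differed by -0.71 ± 0.16 (1118 ± 318 in tumours, 1798 ± 198 in normal lungs, SD, n = 6; adjusted p = 0.0036) and Rbl2 by -0.49 ± 0.12 (adjusted p = 0.006), which had no call with arrays centred on their median (adjusted p = 0.063). Rbl1 differed by 0.30 ± 0.12 with no call (adjusted p = 0.085, and 0.046 without tumour 2). Among further E2F factors, E2f8, an atypical repressor, rose by 1.76 ± 0.44 (adjusted p = 0.0089) and E2f3, an activator like E2f1 and E2f2, by 0.68 ± 0.17 (adjusted p = 0.008). E2f3 had no call with all its probe sets averaged (0.36, adjusted p = 0.13) or without normal lungs 2 and 4 (0.57, adjusted p = 0.053). E2f8 had none without tumours 1, 2, 3 and 5 (1.91, adjusted p = 0.079). Cdc25a, the phosphatase that activates Cdk2, differed by 0.54 ± 0.16 (adjusted p = 0.026) and lost its call without tumour 4, tumour 6 or normal lung 1, with values of 0.43 to 0.48, and with all its probe sets averaged (0.25, adjusted p = 0.33). Of the E2F partners Tfdp2 differed by -0.90 ± 0.17 (adjusted p = 0.0013) and Tfdp1 by 0.80 ± 0.16 (adjusted p = 0.0018). Ccna2, cyclin A2 of S phase, rose by 1.30 ± 0.27 (607 ± 291 in tumours, 224 ± 70.5 in normal lungs, SD, n = 6; adjusted p = 0.0025). Fbxw7, a ubiquitin ligase subunit that targets cyclin E, differed by -0.54 ± 0.13 (adjusted p = 0.0054). Fbxw7 had no call with arrays centred on their median (-0.35, adjusted p = 0.054). The same held without tumours 1, 2, 3 and 5 (-0.48, adjusted p = 0.11) and with Eif2s3y as a covariate (-0.47, adjusted p = 0.085). Skp2, which with Cks1b recognises p27, had no call (0.35 ± 0.20, adjusted p = 0.25).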

How the data were processed

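Signal intensity per probe set was measured on 12 Affymetrix mouse arrays, 6 of spontaneous lung tumours and 6 of normal lungs, grouped by the sample titles. The deposited intensity values come from the authors' run of MAS5, as named in the submitters' processing notes. Which version and settings is not given in the sources used here. The values are linear and have the same 2% trimmed mean on every array, so no further scaling was applied. The 64 control probe sets among 45101 were dropped. Symbols were taken from GEO's platform annotation, checked through gene identifiers against RefSeq (GRCm38.p6): 34945 probe sets had 1 symbol, 932 several and 9160 none listed, and none had changed.

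The fit used limma 3.58.1 under R 4.3.3 on log2(signal + 16), an offset that shrinks differences of dim genes, with lmFit and trended eBayes and without covariates, with two-sided tests and Benjamini-Hochberg adjustment over 45037 probe sets. Correlations between arrays were 0.907 to 0.954 among tumours, 0.932 to 0.966 among normal lungs and 0.868 to 0.919 between the groups, and 0 pairs were identical. The number of arrays limits the precision. Detection calls were not used here. The fit was tested on data simulated with the same spread in both groups. In the arrays themselves 69.4% of all genes had a larger standard deviation among tumours, so unequal spread was not covered. Tables and plots were made with Python 3.11.15, numpy 2.4.6, pandas 2.3.3 and matplotlib 3.10.9.

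The members and lists, and the alternatives that leave out normal lungs 2 and 4, tumours 1, 2, 3 and 5 or tumours 2 and 6, or use Eif2s3y as a covariate, were chosen with earlier results of these data known. Named were all members, of each further list up to 4 genes with the smallest adjusted p and any that passed against the direction of most of its list, and 9 fixed genes (Mki67, Rb1, Cdkn1a, Cdkn2a, Gmnn, Cdc7, Dbf4, Ccna2, Skp2). The further G1/S regulators had no majority direction, so all that were called are named. Rfc1, Rfc2, Rbl1, Tfdp1, E2f3, E2f8 and Cdc25a were added after their values were seen. Values by array were given for the 8 members with the smallest adjusted p, those that fell, the D cyclins, Cdk4, Cdk6, Pcna and E2f1. Other alternatives were offsets of 1 and 64, array weights, no intensity trend, dim probe sets left out, median centring, quantile normalization, the replicate number as a block, the mean of all probe sets of a gene and leaving out each array.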

Additional observations from a re-analysis of the deposited data

Results flagged for a closer look

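Each gene and the mean over the list were examined for a sample far from the other 5 of its group by Dixon's criterion at its 95% critical value. In 86 groups of 6 arrays 7 such samples were found, 4 in tumours and 3 in normal lungs, where chance gives about 1 in 20 groups. All 4 in tumours were high values of tumour 6, which also had the highest mean over the list: Rrm2 at 4834 signal units (449 to 755 in the other tumours), Mcm4 at 1506 (789 to 977), Pola1 at 455 (247 to 293) and Ccne2 at 339 (81.1 to 122). In normal lungs, Prim1 was high in normal lung 3 at 340 (316 to 324 in the others) and Rrm2 in normal lung 1 at 313 (232 to 253), while Rrm1 was low in normal lung 3 at 488 (570 to 620 in the others). The 3 gaps in normal lungs were small beside the differences between the groups for Prim1 and Rrm2.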

How the results depend on the processing

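Over 25 alternatives, 16 of the 23 called members kept direction and call under every setting run. Cdc6, Gins1, Pola1, Pole, Rrm1 and Cdk2 lost the call when at least 1 array was left out, Mcm6 only with the mean of all probe sets of a gene (adjusted p = 0.064), and 0 called members changed sign. The count of members higher was 15 (without normal lung 5) to 22 (without tumour 1) on leaving out 1 array and 16 to 29 otherwise, with 2 to 3 lower, and the median difference was 0.44 to 0.62 and 0.42 to 0.76. Of the 19 members with no call 12 passed under some alternative. Where leaving out 1 array gave a call, that array held the value of its group that most opposed the difference. Such a gain is therefore no further support. Same-numbered samples did not deviate together (correlations of -0.018 to 0.022), so the numbers were not taken as pairs; with the replicate number as a block 17 members were higher and 2 lower. Among the counts, further replication genes lower were 1 with the mean of all probe sets. They were also 1 without tumours 1, 2, 3 and 5 and with Eif2s3y as a covariate. Further G1/S regulators higher were 4 without normal lungs 2 and 4. Members with no overlap were 0 lower with the mean of all probe sets and 24 higher without tumours 1, 2, 3 and 5. Leaving those tumours out kept only tumours 4 and 6, and fewer tumours make no overlap easier to reach. The share over all genes was not computed for that setting. The mean of tumour 2 stood 1.06 above normal lungs with median centring. Timeless, called lower as reported (-0.87), was 0.14 with no call with the mean of all probe sets. Genes with no call reversed: Orc1 to 0.10 and Ccne1 to 0.15 with the mean of all probe sets, Ccne1 to 0.22 and Cdc7 to 0.034 without tumours 1, 2, 3 and 5, and Mcm2 to -0.045 and Mcm10 to -0.0027 without tumours 2 and 6. Rpa2 was 0.11 with quantile normalization, 0.17 with median centring, 0.13 without tumours 1, 2, 3 and 5, 0.10 with the covariate and -0.11 to 0.055 on leaving out 1 array. Gmnn was 0.056, 0.18, 0.23 and 0.17 in these settings, 0.12 without normal lungs 2 and 4 and -0.16 to 0.064 on leaving out 1 array. Rfc1 was -0.097 without tumours 1, 2, 3 and 5, -0.078 with the covariate and -0.035 to 0.050 on leaving out 1 array, and Rfc2 was -0.026 with array weights, -0.11 with the mean of all probe sets, -0.038 without tumours 2 and 6 and -0.035 to 0.058 on leaving out 1 array. The cause was not tested. The filter on dim probe sets left out 7 members (Orc1, Cdc6, Mcm10, Pole, Tyms, Ccne1 and Ccne2), of which 2 (Cdc6 and Pole) were called.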
